A study of Mus musculus with 6 samples.

Results

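The replication-dependent histone genes of the mouse lie in the Hist1, Hist2, Hist3 and Hist4 clusters. They were taken as the protein-coding GENCODE vM21 genes whose symbol begins with Hist1h, Hist2h, Hist3h or Hist4h, which gave 67 genes. A region of the H3ac table was counted as a histone region when it contained the start site of such a gene or lay within 1 kb of it. This rule found 18 of the 24431 regions, and they served 56 of the 67 genes. The 18 regions were also 18 of the 9892 regions within 1 kb of a protein-coding start site, and the other 9874 are called the other promoter regions.

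H3ac, acetylated histone H3, was profiled by CUT&RUN, in which a nuclease tethered to an antibody cuts out the DNA that the antibody has bound in permeabilised cells. There were 6 libraries from cultured mouse mesenchymal stem cells (MSCs), 2 in each of 3 groups. Young MSCs were untreated cells of mice aged 3 to 5 months, Old MSCs were untreated cells of mice aged 18 to 22 months, and OldAcetate MSCs were cells of the same old age range exposed to 5 mM sodium acetate over 3 days. Every culture was kept at 2% oxygen with 10% FBS and 1% penicillin and streptomycin. No label says whether the 2 libraries of a group came from separate mice or separate cultures, so the p-values measure only the spread between these libraries, which may be technical. Old replicate 1 stood apart from the other libraries on the first principal component of the scaled table, which held 25.3% of the variance, at -39.9 against -0.998 to 13.8 for the others.

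Replication-dependent histone genes supply the core histones H2A, H2B, H3 and H4 and the linker histone H1 while DNA is being copied. They are short, have no introns, and their mRNAs end in a stem-loop bound by Slbp instead of a poly(A) tail. NPAT gathers at the clusters in a nuclear body, the histone locus body, and drives their transcription in S phase, when cyclin E and Cdk2 phosphorylate it. Many H2A and H2B genes sit head to head and share the stretch of DNA between their start sites.

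The 67 genes comprised 6 H1, 18 H2A, 18 H2B, 12 H3 and 13 H4 genes. The 54 Hist1 genes lay on chromosome 13 in 2 blocks more than 500 kb apart. Block A held 23 genes over 327 kb (chr13:21716143-22043214), and block B held 31 genes over 403 kb (chr13:23531050-23934462). Hist2 held 10 genes over 49.9 kb (chr3:96219865-96269752), Hist3 held 2 genes on chromosome 11, and Hist4 held a single gene, Hist4h4, on chromosome 6. All coordinates are those of mm10. In 12 places an H2A and an H2B gene pointed away from each other with 176 to 306 bp between their start sites.

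Promoter sequences were taken from RefSeq (GRCm38.p6), 250 bases before to 50 bases after the RefSeq start, and were matched for 61 of the 67 genes, with at most 98 bp between the RefSeq and the GENCODE start. Capitals mark 3 patterns of letters that were searched on both strands, so that the reverse complement is also in capitals. They were the TATA box as TATAAA, the CCAAT box, and the octamer of H2A and H2B promoters as ATTTGCAT. Both strands of a pattern can match overlapping letters, and a promoter was counted once for each pattern. Hist1h2ad is shown because its window spans the whole gap to its divergent partner Hist1h2bf, Hist1h2ac because it holds all 3 patterns, and Hist1h4d because its region is among the densest in H3ac. Hist1h2bq and Hist1h2br are shown because they have no region and are copies of each other, and Hist1h2aa because it has no region although few of its words are repeated in the genome.
Hist1h2ad (H2A; chr13:23574131-23574430, + strand): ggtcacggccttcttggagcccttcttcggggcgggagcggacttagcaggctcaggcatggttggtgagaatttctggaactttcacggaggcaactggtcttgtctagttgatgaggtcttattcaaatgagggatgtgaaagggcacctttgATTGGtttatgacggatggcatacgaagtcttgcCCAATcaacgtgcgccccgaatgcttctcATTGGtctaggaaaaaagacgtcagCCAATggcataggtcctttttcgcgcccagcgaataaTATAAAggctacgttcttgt
Hist1h2ac (H2A; chr13:23683910-23684209, - strand): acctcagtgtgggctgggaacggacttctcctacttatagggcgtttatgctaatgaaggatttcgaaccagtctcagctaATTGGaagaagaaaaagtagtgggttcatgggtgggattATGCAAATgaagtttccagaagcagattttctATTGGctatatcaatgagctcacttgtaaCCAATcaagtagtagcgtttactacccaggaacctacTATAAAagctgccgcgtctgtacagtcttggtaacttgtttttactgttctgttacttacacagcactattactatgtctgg
Hist1h4d (H4; chr13:23581318-23581617, + strand): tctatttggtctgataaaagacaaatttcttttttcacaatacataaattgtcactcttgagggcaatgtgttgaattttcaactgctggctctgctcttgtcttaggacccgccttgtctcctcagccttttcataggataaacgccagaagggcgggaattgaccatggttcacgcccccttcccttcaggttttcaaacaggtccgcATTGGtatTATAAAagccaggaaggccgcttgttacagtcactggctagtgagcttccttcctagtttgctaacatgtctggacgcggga
Hist1h2bq (H2B, no region; chr13:21810150-21810449, - strand): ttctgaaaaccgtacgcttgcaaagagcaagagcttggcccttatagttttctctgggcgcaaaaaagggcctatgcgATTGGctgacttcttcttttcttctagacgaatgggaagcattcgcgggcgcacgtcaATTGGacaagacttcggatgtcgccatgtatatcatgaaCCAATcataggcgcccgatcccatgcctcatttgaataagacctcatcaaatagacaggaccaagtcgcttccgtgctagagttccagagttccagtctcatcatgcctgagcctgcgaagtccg
Hist1h2br (H2B, no region; chr13:21833493-21833792, + strand): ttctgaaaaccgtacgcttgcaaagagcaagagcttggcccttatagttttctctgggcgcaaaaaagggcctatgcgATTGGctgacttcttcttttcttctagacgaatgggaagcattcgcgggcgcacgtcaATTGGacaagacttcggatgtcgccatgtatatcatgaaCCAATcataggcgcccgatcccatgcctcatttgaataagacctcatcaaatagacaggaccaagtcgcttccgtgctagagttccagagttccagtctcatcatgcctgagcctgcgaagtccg
Hist1h2aa (H2A, no region; chr13:23934187-23934486, + strand): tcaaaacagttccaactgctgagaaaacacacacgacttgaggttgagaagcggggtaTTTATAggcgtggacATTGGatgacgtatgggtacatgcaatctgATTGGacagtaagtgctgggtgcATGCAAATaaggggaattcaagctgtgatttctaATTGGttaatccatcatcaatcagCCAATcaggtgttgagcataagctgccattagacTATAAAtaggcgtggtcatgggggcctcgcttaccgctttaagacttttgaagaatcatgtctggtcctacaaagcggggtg

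The letters shared by these promoters were frequent in the family. TATAAA was found in 34 of the 61 histone promoters (55.7%), against 13.6% of the 32851 promoters of the same length in the RefSeq table. CCAAT was found in 85.2% of histone promoters, against 37.4% of all. It stood in every one of the 5 H1, 18 H2A, 16 H2B and 10 H3 promoters matched, but in 3 of 12 H4 promoters. The octamer was found in 7 of 18 H2A and 6 of 16 H2B promoters and in none of the H1, H3 and H4 promoters, against 1.74% of all promoters. The windows of divergent H2A and H2B partners can overlap, as those of Hist1h2ah and Hist1h2bk do. The same site can then count for both genes, so the 61 promoters are not independent sequences. These matches are descriptions of letters, and no binding was measured.

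The conserved histone stem-loop was searched within 150 bases after the stop codon, as a pattern in which most letters were fixed. A match was found in 50 of the 67 genes, a median of 31 bases after the stop (range 23 to 58). A stem-loop that differed at a fixed letter was not counted, so a gene without a match may still carry the element. The form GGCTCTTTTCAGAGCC stood in 41 genes and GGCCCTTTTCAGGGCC in 8 genes. Of the 11 genes without a region, 10 held a match. The commoner form is shown for an H2A and an H1 gene, and the other form for an H4 gene, with the stem and loop in capitals.
Hist1h2ad (chr13:23574890-23574915, + strand): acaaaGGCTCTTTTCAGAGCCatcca
Hist1h1c (chr13:23739507-23739532, + strand): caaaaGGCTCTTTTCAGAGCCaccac
Hist1h4d (chr13:23581945-23581970, + strand): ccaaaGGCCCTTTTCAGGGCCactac

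H3ac regions covered most of the histone genes and merged neighbouring genes. All 6 H1 genes had a region, as did 15 of 18 H2A, 14 of 18 H2B, 10 of 12 H3 and 11 of 13 H4 genes. By position, 17 of 23 genes of block A, 29 of 31 of block B, 8 of 10 of Hist2, 1 of 2 of Hist3 and the single Hist4 gene had one. Together the 18 regions spanned 221 kb, of which block B held 117.5 kb in 8 regions and block A 65.5 kb in 5 regions. The region with the most start sites (chr13:23735001-23765000) ran for 30 kb over 9 genes, from the linker histone gene Hist1h1c to Hist1h1a, and included genes of all 5 histone types. Regions with 1 histone start were as short as 3 kb, at Hist1h4j. Member regions also held the start sites of 4 protein-coding genes that are no clustered histone genes. They were Bola1 beside Hist2h2ab, Trim17 beside Hist3h2a, the variant gene H2afj beside Hist4h4, and the iron regulator Hfe beside Hist1h4c. RefSeq tRNA genes lay in further regions, 2 in chr13:21709501-21724000, 4 in chr13:22025501-22052500 and 2 in chr13:23523501-23548000. The H3ac of all these regions cannot be assigned to histone starts alone.

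**Figure D1:**
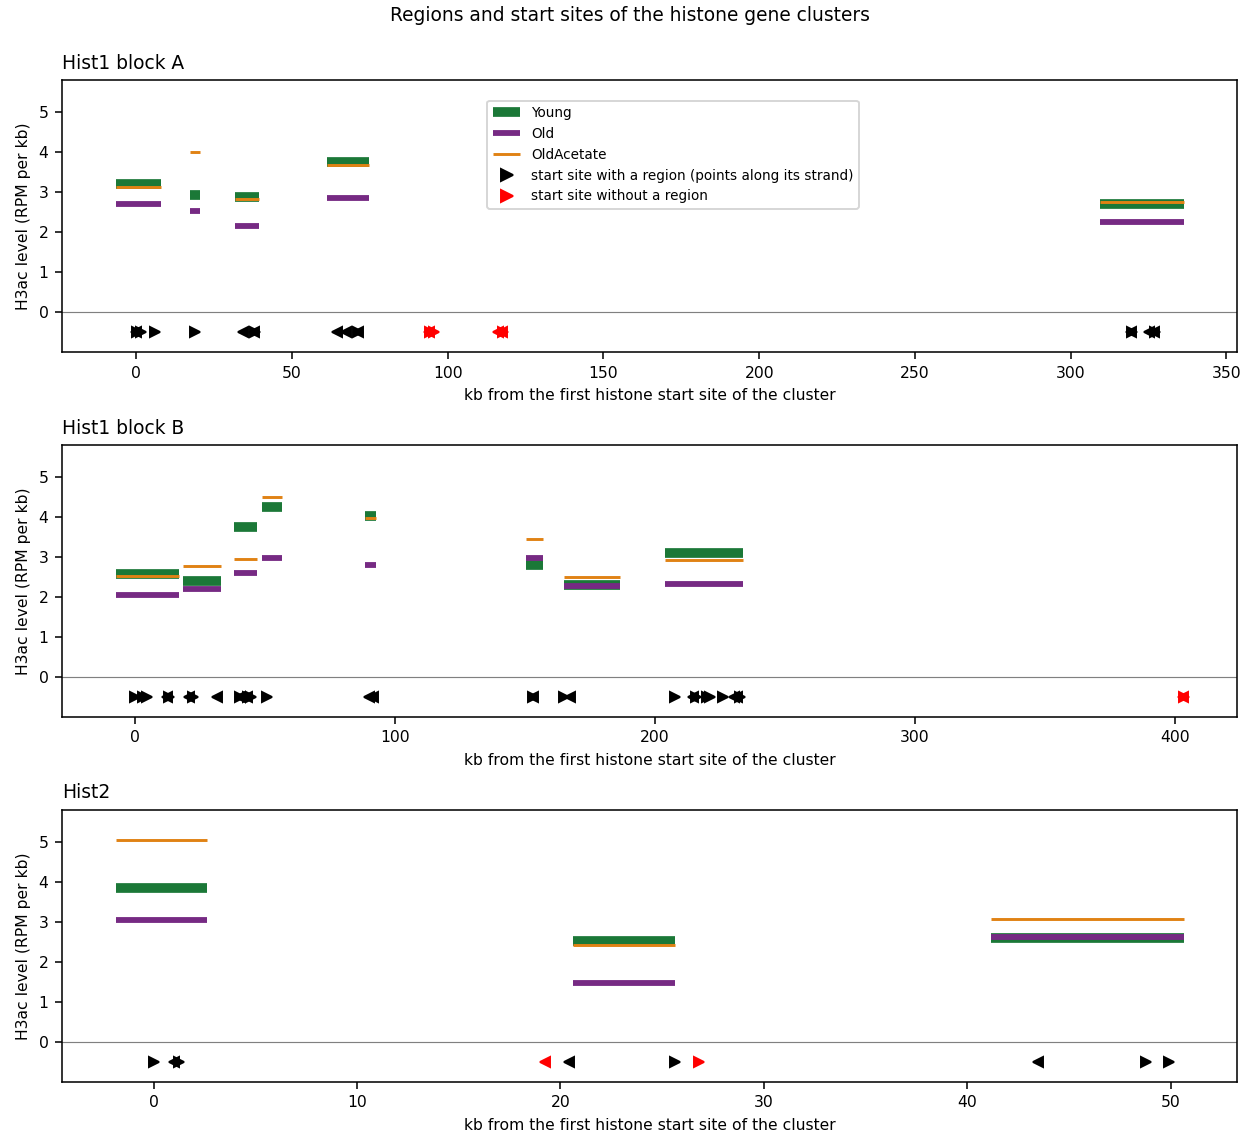
Histone start sites and H3ac regions in Hist1 block A, Hist1 block B and Hist2, by distance in kb from the first start site. Horizontal bars give the mean RPM per kb of each region in Young (thick), Old (medium) and OldAcetate (thin), n = 2 libraries each, and triangles give start sites, red where no region lay within 1 kb. The 6 red sites of block A form a gap between regions, and the 2 of block B lie at its far end.

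The 11 start sites with no region within 1 kb fell into 3 kinds. Hist1h2bq, Hist1h2ao and Hist1h4m, and their mirror copies Hist1h4n, Hist1h2ap and Hist1h2br, lay side by side in block A, 19197 to 42743 bp from the nearest region. Hist2h3c1 and Hist2h3c2 lay just outside the limit, 1185 and 1374 bp from the region over Hist2h2aa1 and Hist2h2aa2. The rest were Hist1h2aa and Hist1h2ba, the testis H2A and H2B genes, about 160 kb from any region, and Hist3h2ba, 4581 bp away. Of the genes with a region, 2 had their start outside it: Hist1h1t, the testis linker histone, 187 bp away, and Hist2h2aa2, 225 bp away.

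Sequence around the start sites differed between genes with and without a region. The share of 50-base words within 1 kb of the start site that occur again elsewhere in the genome, on either strand, had a median of 18.1% over the 56 genes with a region (range 0 to 57.2%) and of 92.0% over the 11 genes without (range 6.92 to 100%). It was above 50% for 2 of 56 genes, Hist2h2aa2 (57.2%) and Hist2h2aa1 (54.4%), and for 8 of 11 genes. It was 100% for Hist1h2bq, Hist1h2ao, Hist1h2ap and Hist1h2br. It was 93.0% for Hist1h4m, 92.0% for Hist1h4n, 78.5% for Hist2h3c1 and 77.6% for Hist2h3c2. The bases around Hist1h2bq and Hist1h2br were identical at 1999 of 1999 positions, as the 2 promoters printed above show, and those around Hist1h2ao and Hist1h2ap at 1971 of 1971. Hist1h2aa and Hist1h2ba (7.07% each) and Hist3h2ba (6.92%) had no region and few repeated words. Reads from a repeated word cannot be placed at one copy, and how the deposited table treated such reads is not given in the sources used here. The part of repeated sequence in the missing regions was not tested, and an absent region at these 8 genes is no measurement of low H3ac.

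**Figure D2:**
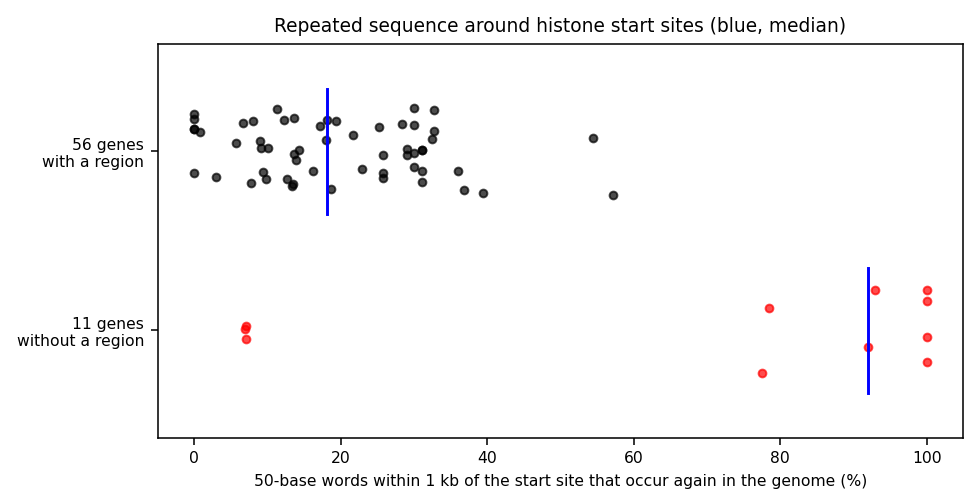
Share of 50-base words within 1 kb of each histone start site that occur again in the genome, in percent, for the 56 genes with a region and the 11 without. Each point is a gene, vertical scatter is only for display, and the blue lines are the medians (18.1% and 92.0%).

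The histone regions were long rather than dense. Their median length was 9250 bp (range 3000 to 30000), against 5500 bp for the other promoter regions, and 44.4% were at least 10 kb long, against 26.5%. Their mean H3ac over the 6 libraries, in RPM (reads scaled to 1000000 per library) per kb, had a median of 3.02 (range 2.14 to 3.98), close to the 3.07 of the other promoter regions and above the 2.70 of all regions. GC content was lower, with a median of 43.5% (range 40.9 to 48.2%) against 48.3% for the other promoter regions. These medians are descriptions and were not tested.

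The level of each region is given in RPM as deposited, which is not divided by length, so only values per kb may be compared between regions. The largest region, over Hist1h1c and 8 further genes, held 97.7 and 87.8 RPM in the Young libraries, 60.6 and 79.5 RPM in Old and 87.0 and 89.3 RPM in OldAcetate. Both Old values lay below all 4 others. The levels per kb were 3.09 ± 0.23 for Young, 2.33 ± 0.45 for Old and 2.94 ± 0.05 for OldAcetate (SD, n = 2).

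The densest region of block B (chr13:23580001-23587500) ran for 7.5 kb. Its only annotated histone gene start was that of the H4 gene Hist1h4d. The stem-loop of Hist1h2be also lay inside it (chr13:23585526-23585551), although the annotated start of Hist1h2be lay in another region. The H3ac of this region cannot be assigned to Hist1h4d alone. The region held 30.6 and 33.1 RPM in Young, 20.3 and 24.3 in Old, then 35.3 and 32.1 in OldAcetate. The Old libraries were the lowest, and Young and OldAcetate overlapped. Its level per kb was 4.25 ± 0.23, 2.97 ± 0.37 and 4.49 ± 0.30 in the same order (SD, n = 2).

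In block A the largest region (chr13:22025501-22052500), over the divergent pairs Hist1h2ah with Hist1h2bk and Hist1h2ag with Hist1h2bj and over Hist1h4i, held 79.9 and 66.6 RPM in Young, 61.0 and 60.5 in Old, then 80.3 and 68.0 in OldAcetate. The densest one (chr13:21777501-21791000), over the linker histone gene Hist1h1b with Hist1h3i, Hist1h2an and Hist1h2bp, held 50.7 and 50.6 RPM in Young, 36.1 and 41.0 in Old, then 49.1 and 50.1 in OldAcetate. In both, the Old values were the lowest. In the second, the OldAcetate values also lay below both Young values, by less than 2 RPM.

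The 3 Hist2 regions behaved unlike one another. The densest (chr3:96218001-96222500), over Hist2h2ab, Hist2h2ac and Hist2h2be, held 17.4 and 17.2 RPM in Young, 11.1 and 16.3 in Old, then 27.9 and 17.5 in OldAcetate, so that a single OldAcetate library stood far above the rest. The largest (chr3:96261001-96270500), over Hist2h4, Hist2h3b and Hist2h2bb, held 25.0 and 24.5 RPM in Young, 24.0 and 25.9 in Old, then 30.2 and 28.4 in OldAcetate. Young and Old overlapped there, and both OldAcetate values were higher. The region between the mirror genes Hist2h2aa1 and Hist2h2aa2 (chr3:96240501-96245500) held 13.5 and 11.8 RPM in Young, 6.01 and 8.75 in Old, then 12.1 and 12.1 in OldAcetate, with Old again the lowest. It covered almost none of either gene. Of its own 50-base words 4.04% were repeated, against over 50% around each of these start sites. Its level is therefore that of the stretch between the genes.

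The regions at the ends of the family were as follows. Hist3h2a (chr11:58953501-58961000) held 28.3 and 32.7 RPM in Young, 19.4 and 21.5 in Old, then 26.2 and 22.5 in OldAcetate, a complete order of Young over OldAcetate over Old. Hist4h4 (chr6:136802501-136814000) held 33.6 and 38.8 RPM in Young, 31.0 and 31.4 in Old, then 38.3 and 35.9 in OldAcetate. In the latter, Young and OldAcetate overlapped and Old was lowest.

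A further 3 regions of block B had the lowest p-values in a comparison below. The region over the pair Hist1h2ac and Hist1h2bc (chr13:23681501-23688000) held 14.8 and 21.6 RPM in Young, 21.3 and 17.5 in Old, then 23.2 and 21.7 in OldAcetate. The region assigned to Hist1h1t and Hist1h4c (chr13:23696001-23717500) held 54.3 and 44.9 RPM in Young, 51.8 and 46.1 in Old, then 52.8 and 55.1 in OldAcetate. The region over Hist1h4f, Hist1h1d and Hist1h3e (chr13:23549501-23564000) held 38.8 and 31.0 RPM in Young, 33.7 and 30.2 in Old, then 40.3 and 40.0 in OldAcetate. In all 3 of them Young and Old overlapped. In the first, narrowly, and in the last both OldAcetate libraries lay above the other 4. The 6 regions not given singly had means over the 6 libraries of 9.47 RPM (Hist1h4j) to 58.4 RPM (Hist1h4h, Hist1h2af, Hist1h3g, Hist1h2bh and Hist1h3f).

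**Figure D3:**
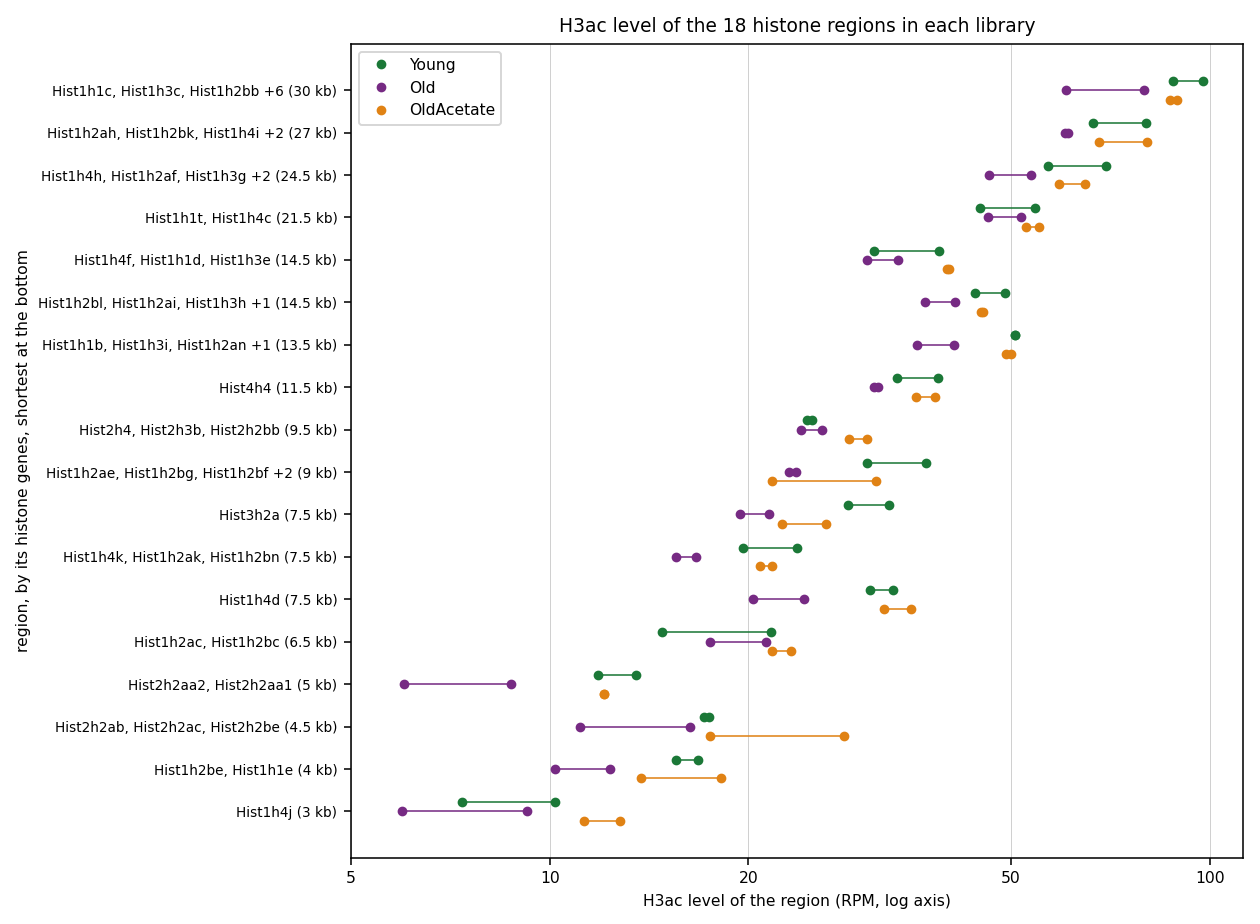
H3ac level of the 18 histone regions in RPM on a log axis, a point per library and a line joining the 2 libraries of a group, with regions ordered by length. The Old points lie to the left of both Young points in 13 regions and to the left of both OldAcetate points in 17.

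The table carries the submitters' code of the groups in which a region was found, whose derivation is not given in the sources used here. It named all 3 groups for 16 of the 18 histone regions (88.9%), against 91.6% of the other promoter regions. The 2 others, over Hist2h2aa1 and Hist2h2aa2 and over Hist1h4k, Hist1h2ak and Hist1h2bn, lacked the Old code. Neither was empty in the Old libraries, with 13 and 22 reads in the first and 36 and 39 in the second.

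Summed over the 18 regions, the deposited H3ac level was lowest in the Old libraries. The sum was 684 and 641 RPM in Young, 523 and 550 in Old, then 690 and 651 in OldAcetate, or 663 ± 30.4, 537 ± 19.2 and 670 ± 28.0 (SD, n = 2). Both Old sums lay below the other 4, and Young and OldAcetate overlapped. Old stood at 81.0% of Young, OldAcetate at 125% of Old and at 101% of Young. The sum over all 24431 regions was also lowest in Old, at 78.1% of Young. There OldAcetate stood at 119% of Old and at 92.6% of Young, with both OldAcetate sums below both Young sums. With 2 libraries against 2, the smallest p that a two-sided exact permutation test can give is 0.333, and none was run on these sums.

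The reads behind these sums were few. The histone regions held 1132 to 2080 reads per library, of library totals of 2163351 to 3039481 reads, which is 0.105 to 0.120% of the reads inside regions. The share of a library's reads that fell inside any region was 64.8 and 57.8% in Young, 49.9 and 45.9% in Old, then 57.3 and 56.3% in OldAcetate. This share is the summed RPM of all regions written as a percentage, so it is no second observation beside those sums. A difference in H3ac and a difference in the background of the libraries cannot be told apart from these values.

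By cluster, Old stood at 80.6% of Young in Hist1 block A, 81.4% in block B, 84.1% in Hist2, 67.1% in Hist3 and 86.2% in Hist4. OldAcetate stood at 125%, 124%, 139%, 119% and 119% of Old in the same order. The Hist2 sum was 55.9 and 53.5 RPM in Young, 41.1 and 50.9 in Old, then 70.2 and 58.0 in OldAcetate. Both OldAcetate sums lay above both Young sums in Hist2, at 117% of the Young mean, and both lay below them in Hist3, at 79.9%. Hist3 and Hist4 are 1 region each, and differences between clusters were not tested.

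**Figure D4:**
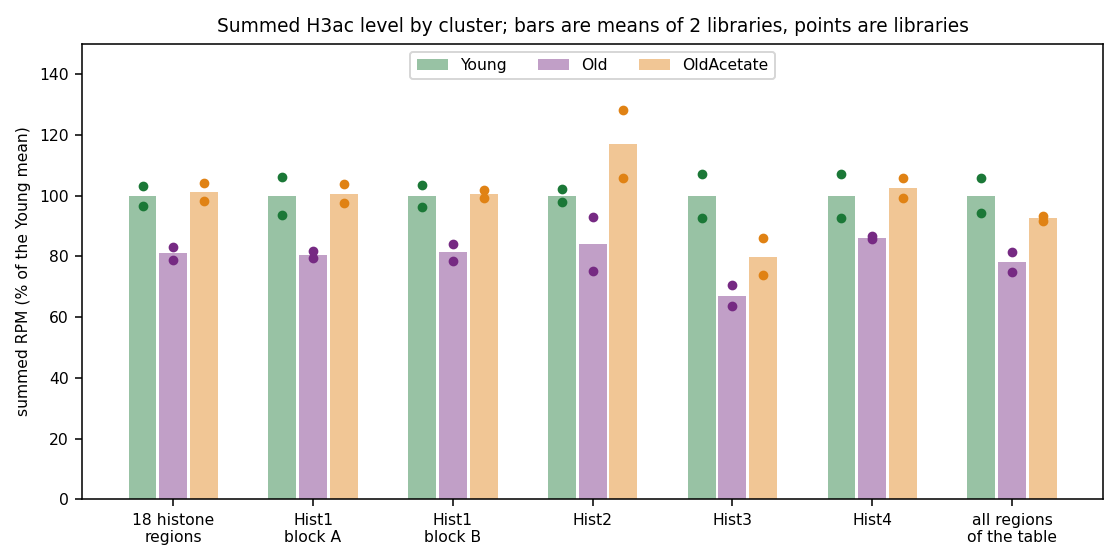
Summed RPM of the histone regions, of each cluster and of all regions of the table, as a percentage of the Young mean. Bars are means of 2 libraries from 0 and points are the libraries. Old stands at 81.0% of Young for the 18 histone regions and at 78.1% for the whole table.

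Region by region, the Old values lay below both Young values in 13 of the 18 histone regions and above both in 0. Over all regions 60.2% were lower without overlap and 1.29% higher. The OldAcetate values lay above both Old values in 17 of 18 and below both in 0, where over all regions 47.1% were higher without overlap and 3.46% lower. The exception was the region of Hist1h2ae, Hist1h2bg, Hist1h2bf, Hist1h2ad and Hist1h3d, with 31.3 and 21.7 RPM in OldAcetate around 23.6 and 23.1 RPM in Old. Against Young, the OldAcetate values were higher without overlap in 5 of 18 regions and lower in 2, against 7.6% and 29.8% of all regions. The first and the second comparison share the Old libraries. Shares without overlap were not taken for the other promoter regions alone. The histone regions also had a higher level, with a median of 28.6 RPM over the 6 libraries. That median was 18.5 RPM for the other promoter regions and 15.7 RPM for all regions. The part of level and length in these counts was not tested.

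To compare regions beyond the shift that the whole table shared, the values were tested as log2(RPM + 0.5) with each library centred on the median of all regions, by limma across all 24431 regions, with Benjamini-Hochberg adjustment. Fold changes below are on this scale unless stated. The scaling moved the median of all regions from -0.35 to -0.00 for Old against Young, from 0.24 to 0.00 for OldAcetate against Old and from -0.11 to 0.00 for OldAcetate against Young.

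For age, 0 of the 18 histone regions passed the adjusted p of 0.05 between Old and Young, against 0.00819% of all regions (2 of 24431). At an unadjusted p of 0.05 it was 2 of 18, against 5.54% of all regions, and edgeR on whole reads gave 0 adjusted (0.0205% of all regions) and 3 unadjusted (5.19% of all regions). The scaled log2 changes ran from -0.41 to 0.45 with a median of 0.01, beside -0.01 for the other promoter regions. Of the 18 regions 9 were above 0, beside 48.9% of the other promoter regions. The lowest p belonged to the region of Hist1h1t and Hist1h4c (log2 fold change 0.34 ± 0.13 SE, limma adjusted p = 0.852), which was -0.02 without scaling. The pair Hist1h2ac and Hist1h2bc had 0.45 ± 0.21 (adjusted p = 0.894), and this value ran from 0.11 to 0.80 when single libraries were left out. Hist2h4, Hist2h3b and Hist2h2bb had 0.36 ± 0.18 (adjusted p = 0.894).

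Without scaling, 1 histone region passed the test between Old and Young, the region of Hist1h1c and 8 further genes. Its log2 fold change was -0.41 ± 0.14 SE (limma adjusted p = 0.0460), where 9.5% of all regions passed as lower. With scaling it was -0.06 ± 0.12 (adjusted p = 0.972), and without Old replicate 1 it was 0.19. Of the 18 regions, 16 were below 0 without scaling, where only 7.85% of all regions were above 0. Their median was -0.34 beside -0.36 for the other promoter regions.

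For acetate, 0 of 18 histone regions passed between OldAcetate and Old, where 0 of all 24431 regions (0%) passed. At an unadjusted p of 0.05 it was 0 of 18, against 6.24% of all regions, and edgeR gave 0 adjusted (0% of all regions) and 1 unadjusted (5.34% of all regions). The scaled changes ran from -0.10 to 0.46 with a median of 0.08, beside 0.05 for the other promoter regions, and 13 of 18 (72.2%) were above 0, beside 60.4% of the other promoter regions. The lowest p-values were those of Hist2h2ab, Hist2h2ac and Hist2h2be (0.46 ± 0.23 SE, limma adjusted p = 0.810), of Hist1h4d (0.35 ± 0.18, adjusted p = 0.810) and of Hist2h2aa1 and Hist2h2aa2 (0.46 ± 0.28, adjusted p = 0.854). When single libraries were left out these ran from 0.13 to 0.79, from 0.16 to 0.54 and from 0.15 to 0.78. Without scaling all 18 were above 0, where 83.2% of all regions were. Their median was 0.32 beside 0.29 for the other promoter regions. The test was passed by 0 of 18, where 0.311% of all regions passed as higher.

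Between OldAcetate and Young, 0 of 18 passed, again beside 0 of 24431 regions (0%). At an unadjusted p of 0.05 it was 1 of 18, against 5.08% of all regions, and edgeR gave 0 adjusted (0% of all regions) and 5 unadjusted (6.76% of all regions). The scaled changes ran from -0.25 to 0.56 with a median of 0.11, beside 0.05 for the other promoter regions, and 16 of 18 (88.9%) were above 0, beside 60.6% of the other promoter regions. Without scaling 9 of 18 were above 0, where 30.8% of all regions were. Their median was -0.00 beside -0.06 for the other promoter regions. The lowest p-values were those of Hist1h4f, Hist1h1d and Hist1h3e (0.32 ± 0.16 SE), of Hist1h2ac and Hist1h2bc (0.43 ± 0.21) and of Hist2h2ab, Hist2h2ac and Hist2h2be (0.46 ± 0.23), each with a limma adjusted p of 0.964. Left-out libraries took the second from 0.08 to 0.78 and the third from 0.14 to 0.77.

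Few reads per region and 2 libraries in each group bound what could be seen, and their parts were not separated. The 95% intervals of the scaled changes lay wholly within a 2-fold change in either direction for 18 of 18 regions between Old and Young, for 16 of 18 between OldAcetate and Old and for 17 of 18 between OldAcetate and Young. The exceptions were Hist2h2aa1 with Hist2h2aa2, and Hist1h4j, the region with the fewest reads. The intervals do not show that the regions were alike.

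**Figure D5:**
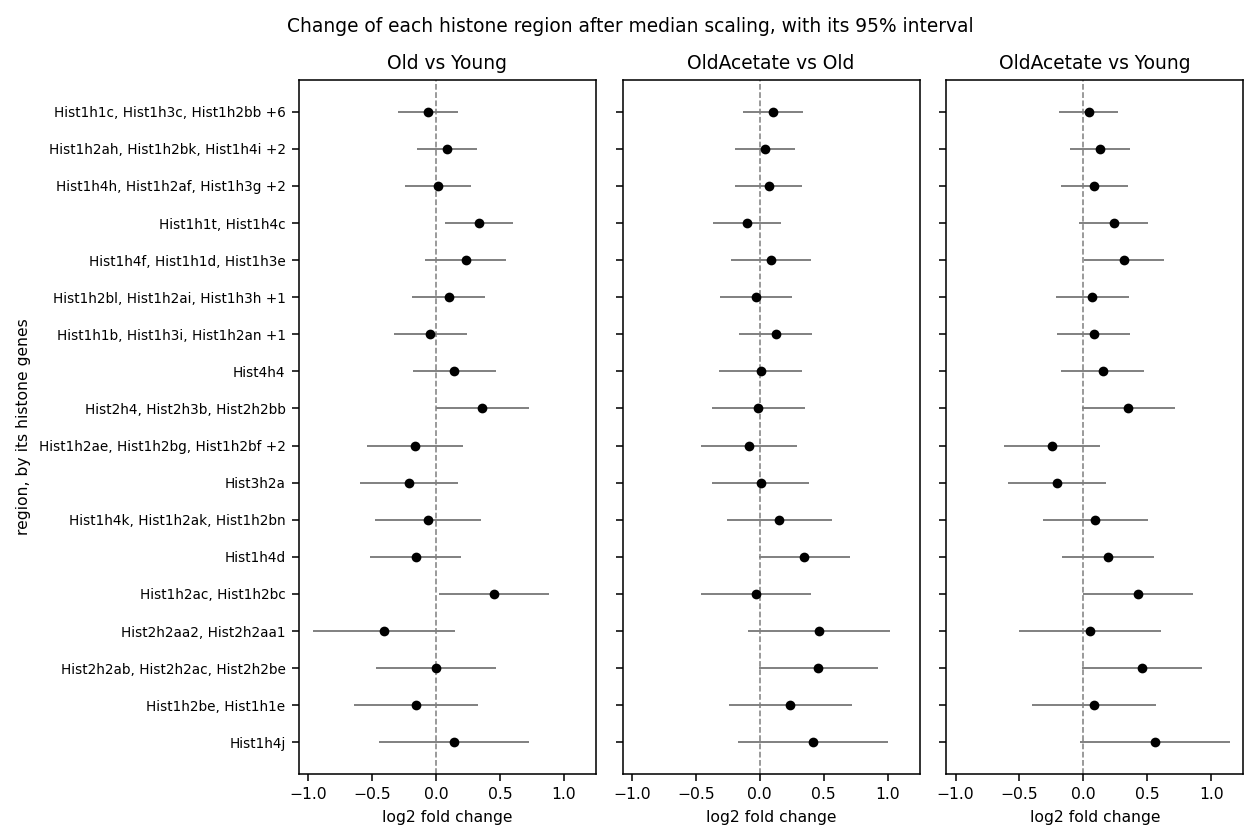
Log2 fold change of each histone region after median scaling, with its 95% interval from limma, for Old against Young, OldAcetate against Old and OldAcetate against Young. None passed the adjusted p of 0.05, and the intervals reach from -0.97 to 1.14.

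Genes that act on the clusters were measured by the region at their own start. Such a region can reach well beyond the promoter, as that of Lsm10 does with 22000 bp. Other start sites in the regions of these factors were not counted. Of 26 factors of histone gene transcription and 3′ end processing 25 had a region, and 0 of 25 passed after scaling in each of the 3 comparisons, with medians of 0.09 (Old against Young), 0.01 (OldAcetate against Old) and 0.14 (OldAcetate against Young). Slbp, which binds the stem-loop, held 43.1 and 34.7 RPM in Young, 31.9 and 25.1 in Old, then 36.6 and 35.9 in OldAcetate. Npat, the S phase activator of the clusters, held 30.3 and 33.1 RPM in Young, 28.7 and 23.9 in Old, then 30.6 and 30.9 in OldAcetate. Both had their lowest values in Old. Casp8ap2, a partner of NPAT in the histone locus body, held 18.4 and 13.1 RPM in Young, 14.8 and 15.1 in Old, then 17.5 and 15.9 in OldAcetate, with Old inside the Young range. The lowest p in each comparison belonged to Cpsf3, the endonuclease that cuts histone pre-mRNA (Old against Young, 0.56 ± 0.20 SE, limma adjusted p = 0.808), to Sympk, a scaffold of the cleavage factors (OldAcetate against Old, -0.46 ± 0.21, adjusted p = 0.777), and to the transcription factor Yy1 (OldAcetate against Young, 0.73 ± 0.18, adjusted p = 0.790). When single libraries were left out, Sympk ran from -0.66 to -0.27 and Yy1 from 0.41 to 1.06. Without scaling, 1 of 25 passed as lower in Old than in Young, where 9.5% of all regions did. It was Pou2f1, whose product binds the octamer (-0.74 ± 0.21, adjusted p = 0.0215, and -0.39 with scaling).

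All 11 histone variant genes had a region, and 0 of 11 passed in each comparison, with scaled medians of 0.07, 0.09 and 0.12 in the same order. The region of H2afj is that of Hist4h4, so it is also counted among the histone regions. H3f3a and H3f3b, which encode the replacement histone H3.3, held 25.0 and 20.4 RPM and 16.5 and 11.8 RPM in Young, 12.0 and 16.7 RPM and 7.40 and 11.1 RPM in Old, and 24.5 and 17.1 RPM and 14.1 and 15.0 RPM in OldAcetate. H2afz, the gene of H2A.Z, held 30.9 and 27.4 RPM in Young, 30.0 and 25.5 in Old, then 29.9 and 23.4 in OldAcetate. H2afx, the gene of the DNA damage variant H2A.X, held 7.24 and 10.2 RPM in Young, 8.32 and 7.95 in Old, then 9.41 and 12.5 in OldAcetate. The H3.3 genes had their lowest values in Old, while the values of H2afz and H2afx overlapped between Young and Old. The lowest p-values were those of H2afy2, a macroH2A gene (Old against Young, 0.60 ± 0.24 SE, limma adjusted p = 0.852), of Cenpa, the centromeric H3 (OldAcetate against Old, -0.72 ± 0.24, adjusted p = 0.658), and of H1f0, the linker histone of resting cells (OldAcetate against Young, 0.36 ± 0.19, adjusted p = 0.964).

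S phase and proliferation genes were described because the clusters are read in S phase. Of 19, 18 had a region, and 0 of 18 passed in each comparison, with scaled medians of 0.02, 0.04 and 0.16. The mitotic cyclin gene Ccnb1 held 24.7 and 21.2 RPM in Young, 10.6 and 15.1 in Old, then 25.9 and 21.7 in OldAcetate. It had the lowest p for Old against Young (-0.48 ± 0.22 SE, limma adjusted p = 0.894) and for OldAcetate against Old (0.64 ± 0.22, adjusted p = 0.658), which share the Old libraries. With single libraries left out the first ran from -0.78 to -0.17 and the second from 0.33 to 0.94. Without scaling it was lower in Old than in Young (-0.83 ± 0.23, adjusted p = 0.0202), 1 of 18 where 9.5% of all regions passed. Cdk1, the mitotic kinase, had the lowest p for OldAcetate against Young (-0.34 ± 0.18, adjusted p = 0.964), running from -0.48 to -0.19 with single libraries left out. All 13 histone chaperone genes had a region, and 0 of 13 passed, with scaled medians of -0.05, 0.17 and 0.10. The lowest p-values were those of Ssrp1, a subunit of FACT (Old against Young, -0.57 ± 0.23, adjusted p = 0.852, and OldAcetate against Young, -0.37 ± 0.23, adjusted p = 0.974), and of Daxx, a chaperone of H3.3 (OldAcetate against Old, 0.26 ± 0.15, adjusted p = 0.846). Left-out libraries took Ssrp1 from -0.76 to -0.38 and from -0.58 to -0.17, and Daxx from 0.046 to 0.47. Without scaling Ssrp1 (-0.92 ± 0.24, adjusted p = 0.0166) and Daxx (-0.54 ± 0.17, adjusted p = 0.0340) were lower in Old than in Young, 2 of 13 where 9.5% of all regions passed. The cell cycle stage of the cultures was not measured.

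The labelled cell type was checked by its markers. All 13 mesenchymal markers had a region and none of 6 endothelial markers did. After scaling 0 of the 13 passed in each comparison. Without scaling 4 of 13 (Pdgfra, Thy1, Cd44 and Col1a1) were lower in Old than in Young, where 9.5% of all regions passed as lower, and 0 of 13 passed in the other comparisons. Among the blood markers reported, Ptprc, Adgre1, Itgam, Csf1r, Cd79a and Cd3e had no region, while Cd68 and Spi1 had one. The region of Cd68, a macrophage marker, also holds the starts of Mpdu1 and Eif4a1, and it held 33.6 and 29.0 RPM in Young, 27.7 and 27.4 in Old, then 27.2 and 32.5 in OldAcetate. Spi1, the gene of a myeloid transcription factor, held 22.7 and 22.5 RPM in Young, 17.1 and 17.9 in Old, then 19.8 and 22.9 in OldAcetate. Old was the lowest group at Spi1, while at Cd68 Old lay below Young and overlapped OldAcetate. Summed over a list, Old stood at 78.8% of Young for the mesenchymal markers and at 79.1% for the S phase genes. It stood at 82.8% for the transcription and processing factors, 84.8% for the variants and 74.8% for the chaperones. These values lay on both sides of the 81.0% of the histone regions. The part of blood cells in the histone levels was not tested.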

How the data were processed

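The submitters' processing notes name Bowtie2, Picard and the mm10 build, and their settings are not given in the sources used here. The deposited table gives 1 column per library over regions the authors called jointly. Its values are RPM, reads scaled by the authors to 1000000 per library, although it is named as RPKM. Dividing a library's column by its smallest step returned whole reads for 100% of entries (tolerance 0.01) at every region length. Yeast DNA was present in the stop buffer, and whether it scaled the values is not stated. The total of Young replicate 2 came out as 2448203.5 reads, for which no source gives a reason.

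The main test was limma 3.58.1 (R 4.3.3) on log2(RPM + 0.5) with each library centred on the median over regions of its deviation from the region's mean, over all 6 libraries and all 24431 regions, with a trended and robust variance prior and Benjamini-Hochberg adjustment at 0.05. Called regions were also counted with edgeR 4.0.16 (quasi-likelihood, RLE factors) on the recovered reads. Start sites were the 5′ ends of GENCODE vM21 genes. Scripts used Python 3.11.15 and were tested on simulated data. Columns of the table mapped to no sample numbered 0.

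Values are given singly for the region with the highest level and the highest level per kb in each cluster, the 3 histone regions with the lowest p in each comparison, regions past the threshold, the region with most start sites, every gene without a region and, from the lists of processing factors, variants, S phase genes and chaperones, the gene with the lowest p per comparison, genes past the threshold, Slbp, Npat, Casp8ap2, H3f3a, H3f3b, H2afz and H2afx. Cell type markers are given by counts, and Cd68 and Spi1, with values, were chosen after these were seen. A listed gene was measured by the region within 1 kb of its start with the highest mean. Members, lists and tests were chosen with earlier results of these data known.

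Replicate numbers are shared between groups, and the deviations of same-numbered libraries correlated at 0.01, -0.03 and -0.04 across regions. With few reads per region such correlations can be weak even between paired libraries. Whether the numbers pair the libraries is therefore not settled. The alternatives tried were leaving the libraries unscaled, quantile normalisation, adding 0.1 or 1 before the logarithm, leaving out the lowest 25% of regions, a replicate block, only the 4 libraries compared, a plain variance prior, each library left out, distances of 0 and 5 kb, any transcript start, a threshold of 0.01 and, for sums, division by the sum over all regions. Some genes of the marker lists are not reported here.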

Additional observations from a re-analysis of the deposited data

How the results depend on the processing

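Each result was recomputed under the alternatives named in the methods. The count of histone regions past the threshold was 0 in every comparison under every alternative, except 1 for Old against Young without scaling. With the replicate block it was 0 in each comparison, with the median changes of 0.01, 0.08 and 0.11 as before, and the block changed no call. The median change of the histone regions moved beyond its replicate SD (0.14) only without scaling, to -0.34 for Old against Young and to 0.32 for OldAcetate against Old, which is the shift that scaling removes. With single libraries left out it ran from -0.11 to 0.13 for Old against Young, from -0.01 to 0.15 for OldAcetate against Old and from 0.07 to 0.19 for OldAcetate against Young, so the first and the second changed sign. The lowest value of the first was without Old replicate 2 and its highest without Old replicate 1, which also gave the lowest value of the second. The log2 ratios of the summed levels, -0.30, 0.32 and 0.02, became 0.054, 0.071 and 0.12 after division by the sum over all regions, and with single libraries left out they ran from -0.35 to -0.26, from 0.28 to 0.36 and from -0.03 to 0.06.

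Of 25 single changes given in the text under 375 alternatives, 366 kept direction and side of the threshold, 4 changed sign and 5 passed only there. None of the 25 passed in the main test, so that keeping the side of the threshold says little about them. Their sizes could move more, as for Hist1h2ac between Old and Young, from 0.11 to 0.80 with single libraries left out. The sign changed for Hist1h1t without scaling (-0.015), and without Old replicate 1 for Hist1h1c between Old and Young (0.19, with single libraries left out -0.32 to 0.19), for Hist1h1c between OldAcetate and Old (-0.15, range -0.15 to 0.36) and for Daxx between Old and Young (0.021, range -0.40 to 0.021). The regions of Hist1h1c, Ccnb1, Ssrp1, Pou2f1 and Daxx passed between Old and Young only without scaling. With 31 to 56 reads in the median region per library and 2 libraries in each group, small changes were not detectable.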
